A study of Mus musculus with 8 samples.

Results

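Acinar digestive enzyme genes are the genes by which the exocrine pancreas makes, packs and controls its digestive juice, and they were followed here in RNA of isolated mouse pancreatic islets. The list named 37 genes, given by symbol and sorted by role into proteases, amylases, lipases with their cofactor, other secreted or granule proteins, and regulators with a receptor. Of these, 33 were among the 13725 genes of the deposited table. CPM are counts scaled to the same nominal total in every library. A filter on low values (mean log2 CPM above 0 over all 8 libraries) passed 31 of the 33 and left 12231 genes to test. Prss1 and Ptf1a were in the table but below that filter, and Cela3a, Rbpjl, Nr5a2 and Cckar were not analysed here. All mice were female, of the NOD strain, and 10 weeks old. The 4 vehicle libraries carried the replicate numbers 1, 3, 4 and 5, and the 4 libraries of the treated group the numbers 1, 2, 3 and 4. PAHSA stands for lipids in which palmitic acid is esterified to a hydroxy stearic acid, and the sample labels spell it PASHA. The labels used here name no dose, route or duration. The design text counts 4 mice per group, whereas the extraction protocol describes 4 islet sets, each a pool from 2 animals, so the p-values below measure the spread between libraries.

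Acinar cells surround the islets in the pancreas. They synthesise proteases as inactive zymogens, store them with amylase, lipases and nucleases in zymogen granules, and release the granules when cholecystokinin or acetylcholine acts on them. The transcription factor Ptf1a, in a complex with Rbpjl, drives the enzyme genes, Bhlha15 (also called Mist1) builds up the secretory apparatus, and Nr5a2 acts with them. Isolated islets are the endocrine part of the gland. In bulk RNA a smaller number of acinar cells and less enzyme RNA per acinar cell cannot be told apart.

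The samples had the islet label's defining genes at high levels: Ins2 lay between 16.22 and 16.66 log2 CPM and Gcg between 15.88 and 16.29 in the 8 libraries. Recovered estimated counts ranged from 34461742 to 45236238 per library. PAHSA replicate 4 stood apart in the acinar genes, and the results are given with and without it. No batch is named in the labels.

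Several members lie in small clusters of related genes. The 6 trypsinogen genes of the list lie on chromosome 6 between 41302269, the start of Try4, and 41525079, the end of Prss2 (GRCm38). The 3 amylase genes lie on chromosome 3 between 113147656, the start of Amy2b, and 113606699, the end of Amy1, and the 3 genes Pnlip, Pnliprp1 and Pnliprp2 side by side on chromosome 19 between 58652498 and 58777534. GENCODE M21 calls the Amy2b locus an unprocessed pseudogene, and all other members protein-coding genes.

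Since most members had a common profile over the libraries, as described below, the 300 bases around the start of the best expressed member of each class were compared for short motifs. They run from 250 bases before to 50 after the start and come from RefSeq on GRCm38.p6, where 26 of the 33 measured members had an entry. Capitals mark 4 motifs searched on both strands, none of which overlaps another: CACCTG, an E-box of the kind that factors such as Ptf1a and Bhlha15 bind, the E-box CAGCTG, the letters TTTCCC found in the element bound by Rbpjl, and TATAAA, the core promoter element that places the start of transcription.
Try4 promoter, chr6:41302022-41302321, plus strand: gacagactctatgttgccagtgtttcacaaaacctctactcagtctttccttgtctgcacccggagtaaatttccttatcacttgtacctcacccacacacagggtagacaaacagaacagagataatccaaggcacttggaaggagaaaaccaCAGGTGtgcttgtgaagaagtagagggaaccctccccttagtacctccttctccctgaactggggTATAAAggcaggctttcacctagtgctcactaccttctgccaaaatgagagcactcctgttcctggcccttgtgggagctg
Amy2b promoter, chr3:113156678-113156977, minus strand: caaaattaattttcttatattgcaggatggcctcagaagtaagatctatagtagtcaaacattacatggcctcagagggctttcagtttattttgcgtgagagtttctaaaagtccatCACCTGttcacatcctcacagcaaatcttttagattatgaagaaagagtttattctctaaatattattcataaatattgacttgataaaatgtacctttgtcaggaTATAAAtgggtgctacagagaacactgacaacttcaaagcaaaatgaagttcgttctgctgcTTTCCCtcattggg
Pnlip promoter, chr19:58670115-58670414, plus strand: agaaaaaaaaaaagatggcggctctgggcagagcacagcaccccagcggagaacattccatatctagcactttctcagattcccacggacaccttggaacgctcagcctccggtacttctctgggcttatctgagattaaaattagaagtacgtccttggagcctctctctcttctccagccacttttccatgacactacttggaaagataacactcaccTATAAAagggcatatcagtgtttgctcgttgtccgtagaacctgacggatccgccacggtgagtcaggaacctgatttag
Gp2 promoter, chr7:119459223-119459522, minus strand: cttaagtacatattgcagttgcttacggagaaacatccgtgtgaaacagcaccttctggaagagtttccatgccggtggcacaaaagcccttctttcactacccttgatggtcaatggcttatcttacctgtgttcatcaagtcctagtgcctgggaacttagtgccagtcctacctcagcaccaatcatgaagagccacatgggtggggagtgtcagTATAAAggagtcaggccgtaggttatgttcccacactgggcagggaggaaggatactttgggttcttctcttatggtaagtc
Bhlha15 promoter, chr5:144190036-144190335, plus strand: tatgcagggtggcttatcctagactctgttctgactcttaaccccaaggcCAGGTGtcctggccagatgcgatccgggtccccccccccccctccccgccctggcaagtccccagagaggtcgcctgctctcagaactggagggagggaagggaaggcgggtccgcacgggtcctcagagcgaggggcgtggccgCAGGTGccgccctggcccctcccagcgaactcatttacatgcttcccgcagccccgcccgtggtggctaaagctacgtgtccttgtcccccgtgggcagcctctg

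CACCTG was found in 14 of the 26 member promoters (53.8%), against 20.2% of all 32851 promoters in the table. CAGCTG was found in 7 (26.9%, against 16.3%), TTTCCC in 9 (34.6%, against 25.2%) and TATAAA in 10 (38.5%, against 13.6%). TATAAA stands in the printed promoters of Try4, Amy2b, Pnlip and Gp2 and not in that of Bhlha15, whose 2 matches are both CACCTG on the minus strand. These are matches of letters within the window, several of the promoters belong to close paralogs, and binding was not measured.

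The acinar genes had a summed CPM that differed widely between libraries and less between the groups. All 33 members together took 1.46%, 1.48%, 5.80% and 3.64% of the nominal CPM total across vehicle libraries 1, 3, 4 and 5. Across PAHSA libraries 1, 2, 3 and 4 they took 0.515%, 2.20%, 1.33% and 0.0586%. Vehicle replicate 4 was the highest and PAHSA replicate 4 the lowest, 99.0-fold apart in summed CPM. The groups overlapped, since PAHSA replicate 2 lay above vehicle replicates 1 and 3, while PAHSA replicates 1, 3 and 4 lay below all vehicle libraries. The mean was 3.10% ± 2.08 in vehicle and 1.03% ± 0.94 in PAHSA (SD, n = 4), 3.01-fold higher in vehicle, or 2.29-fold without PAHSA replicate 4. Even within the vehicle group the highest library was 3.98-fold above the lowest. The CPM of all genes in the table summed to between 965680 in PAHSA replicate 1 and 1069261 in vehicle replicate 4. Percentages of the nominal CPM total are therefore not exact shares of a library.

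**Figure D1:**
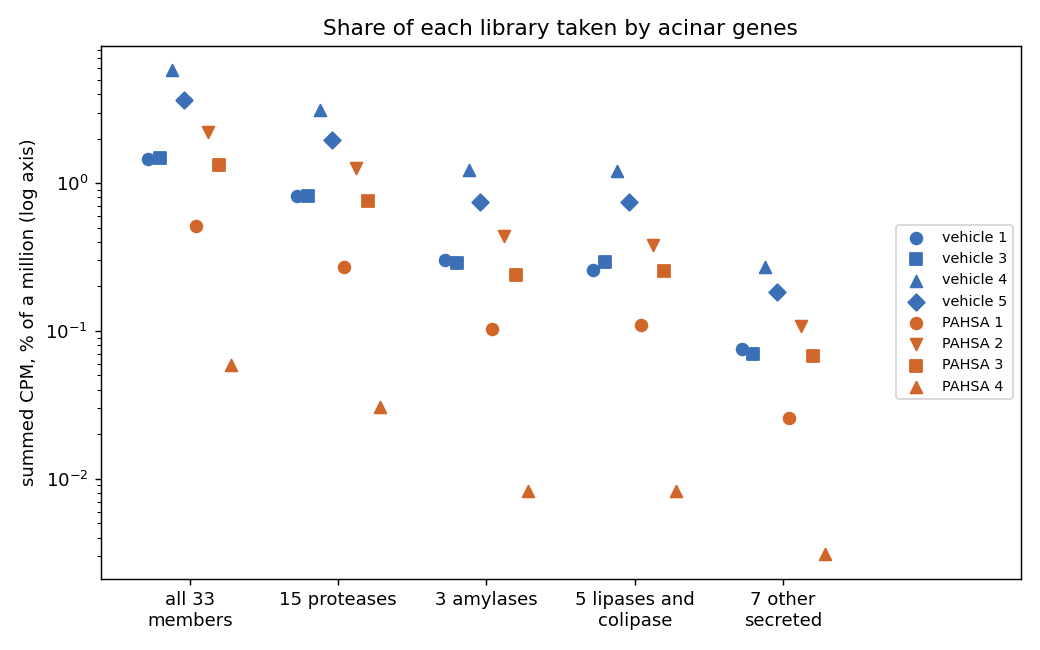
Summed CPM of the acinar genes as a percentage of the nominal CPM total (log axis), for all 33 members and for the 4 secreted classes. Each point is 1 library, blue for vehicle and orange for PAHSA, with the marker shape giving the replicate number. The 8 libraries keep nearly the same order in every class, from vehicle 4 at the top (5.80% for all members) to PAHSA 4 at the bottom (0.0586%).

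The order of the libraries was nearly the same for most enzyme genes. Among the 31 tested members, vehicle replicate 4 was the highest library for 29, against 15.5% of all genes tested. Vehicle replicate 5 was second for 29 and PAHSA replicate 2 next after it for 29. PAHSA replicate 4 was the lowest for 30, against 14.4% of all genes tested, and PAHSA replicate 1 was next to it for 29. PAHSA replicate 4 lay at least 3 log2 units below the lowest of the other libraries for 22 of 31 tested members, against 0.948% of all genes tested. The exceptions with a gap of less than 3 were Cela1, Try5, Ctrc, Ctrl, Rnase1, Zg16, Gp2, Dmbt1 and Bhlha15. Bhlha15 was the tested member for which PAHSA replicate 4 was not the lowest.

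**Figure D2:**
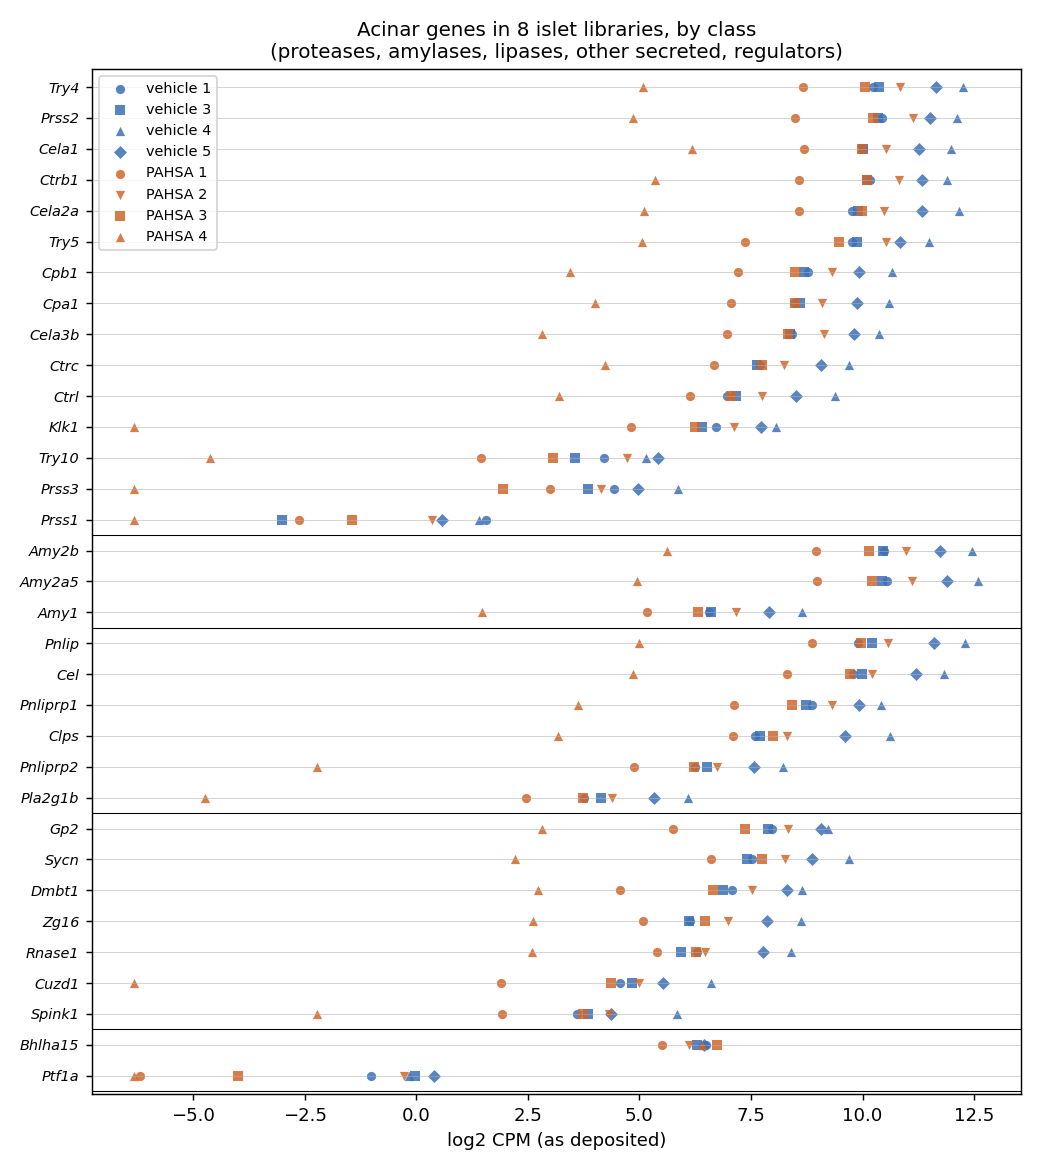
Deposited log2 CPM of the 33 measured members in each library, grouped by class from top to bottom (proteases, amylases, lipases and colipase, other secreted proteins, regulators) and ordered by mean level within a class. Most rows repeat 1 pattern, with vehicle 4 and 5 rightmost and PAHSA 1 and 4 leftmost, unlike Bhlha15, whose 8 libraries lie between 5.51 and 6.75.

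Against this spread, the comparison of PAHSA with vehicle gave lower mean values for the whole list and no gene past the threshold. Most members kept nearly the same order of libraries, so their counts below are not independent observations. The list was also chosen with earlier results of these data known. All 31 tested members had a lower mean in PAHSA, against 50.9% of all 12231 genes, and all 31 also without PAHSA replicate 4, against 49.6%. The difference was below -1 for 30 of 31 members, against 4.71% of all genes, and for 28 of 31 without PAHSA replicate 4, against 5.04%. The median difference of the members was -2.40 on the log2 CPM scale, against -0.006 over all genes tested, and -1.18 without PAHSA replicate 4. By limma, 0 members and 0 of all genes tested passed an adjusted p of 0.05 (0% of genes called), and the smallest adjusted p of a member was 0.671, or 0.515 without PAHSA replicate 4. At an unadjusted p under 0.05, 20 of 31 members were lower in PAHSA and 0 higher, against 4.29% of all genes lower and 3.02% higher. Without PAHSA replicate 4 it was 9 lower (4.96% of all genes) and 0 higher (2.95%). The count lower was 1 without PAHSA replicate 1, 0 without vehicle replicate 4 and 0 without vehicle replicate 5. For 0 of 31 tested members did every PAHSA library lie below every vehicle library (1.95% of all genes), and the same held without PAHSA replicate 4 (0 of 31, against 4.33%).

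**Figure D3:**
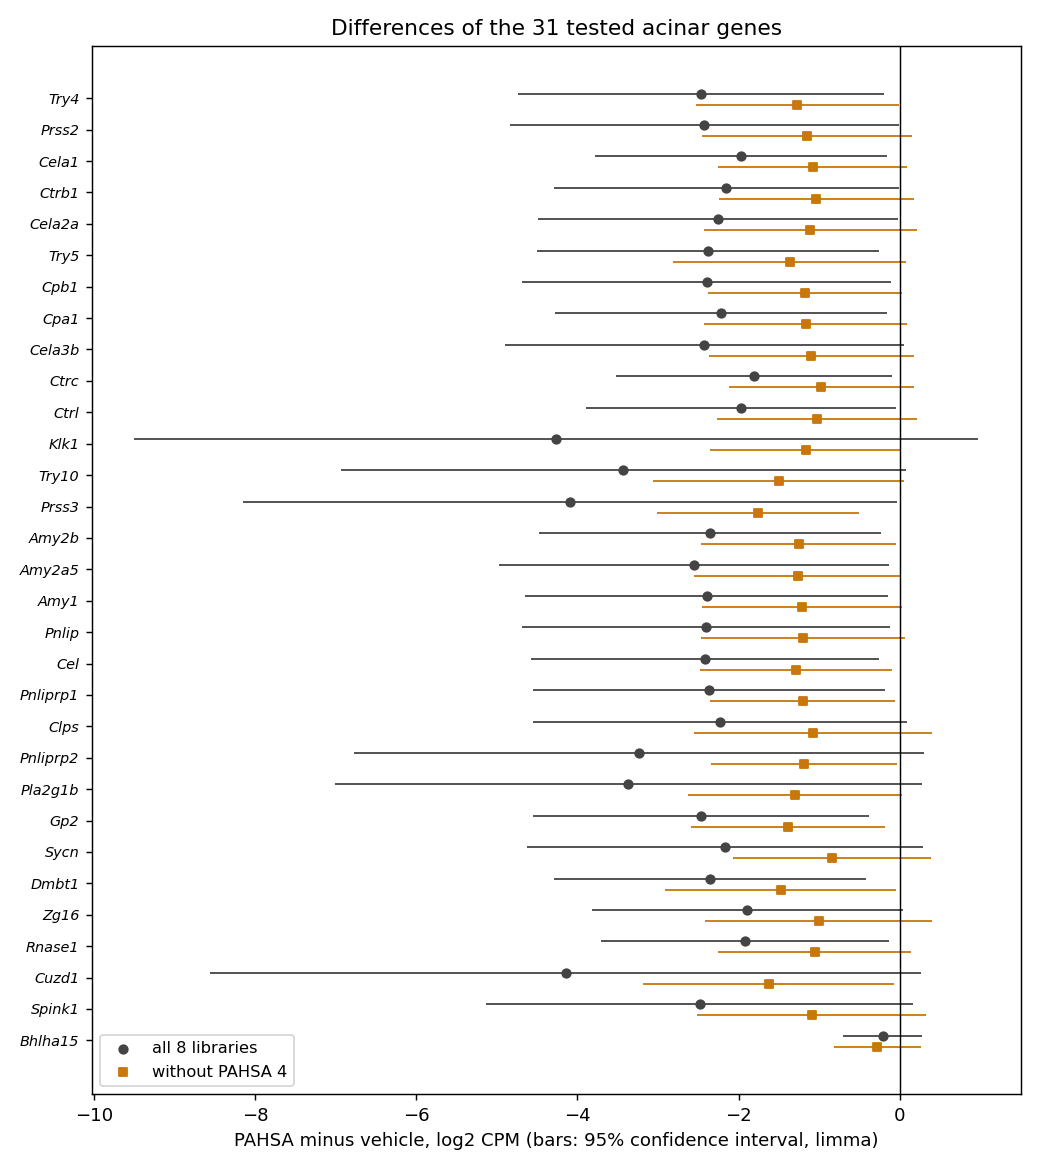
Difference of PAHSA minus vehicle in log2 CPM for the 31 tested members with the 95% confidence interval from limma, for all 8 libraries (grey circles) and without PAHSA replicate 4 (orange squares). All point values lie below 0, many intervals reach 0, and without that library the median moves from -2.40 to -1.18 and the intervals of the enzyme genes narrow.

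Proteases were the largest class, with 15 of 16 listed genes in the table and 14 tested. They took between 0.812% and 3.10% of the nominal CPM total in vehicle and between 0.0305% and 1.27% in PAHSA. All 14 were lower in PAHSA, 11 at an unadjusted p under 0.05 (2 without PAHSA replicate 4) and 0 after adjustment. Their median difference was -2.39, or -1.16 without PAHSA replicate 4.

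Trypsinogens are the zymogens of trypsin, which in the gut activates the other pancreatic zymogens. Try4 (ENSMUSG00000054106, chromosome 6 from 41302269 to 41305532) was the best expressed protease, at 10.23, 10.37, 12.26 and 11.65 log2 CPM across vehicle libraries 1, 3, 4 and 5, then 8.66, 10.84, 10.06 and 5.08 across PAHSA libraries 1, 2, 3 and 4. PAHSA replicates 1, 3 and 4 lay below the vehicle libraries and PAHSA replicate 2 between them. The difference was -2.47 (SE 1.03), and -1.27 (SE 0.56) without PAHSA replicate 4. Prss2 (ENSMUSG00000057163), an anionic trypsinogen, was at 10.45, 10.34, 12.12 and 11.51 log2 CPM across vehicle libraries 1, 3, 4 and 5, then 8.49, 11.13, 10.24 and 4.85 across PAHSA libraries 1, 2, 3 and 4. It had the same order of libraries except that vehicle replicate 1 lay above vehicle replicate 3, and differed by -2.43 (SE 1.09), and -1.15 (SE 0.59) without PAHSA replicate 4. Try5 (ENSMUSG00000036938, chromosome 6 from 41311233 to 41316841) was among the 3 members with the smallest p. It was at 9.76, 9.88, 11.48 and 10.83 log2 CPM across vehicle libraries 1, 3, 4 and 5, then 7.37, 10.53, 9.47 and 5.06 across PAHSA libraries 1, 2, 3 and 4. Here PAHSA replicate 1 stood further down than for Try4. The difference was -2.38 (SE 0.96), and -1.37 (SE 0.65) without PAHSA replicate 4, with an adjusted p of 0.671 by limma.

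The weakly expressed trypsinogens hardly registered in PAHSA replicate 4. Prss3 differed by -4.09 (SE 1.83; -1.76 without PAHSA replicate 4) and Try10 by -3.43 (SE 1.59; -1.50 without PAHSA replicate 4). In PAHSA replicate 4 Prss3 was listed at the lowest value of its library, -6.32 log2 CPM, which stands for a count of 0, and Try10 at -4.63, so these differences depend on the counts the authors added before taking logs. Prss1, below the filter, had a mean of 0.13 ± 2.13 log2 CPM for the vehicle group, and of -2.51 ± 2.82 for the PAHSA group (SD, n = 4), and vehicle replicate 3 at -3.00 lay lower than PAHSA replicates 1, 2 and 3.

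Elastases, chymotrypsins and carboxypeptidases digest proteins next to trypsin. Cela1 (ENSMUSG00000023031, chromosome 15 from 100674421 to 100687921), an elastase, was at 10.00, 10.02, 11.99 and 11.27 log2 CPM across vehicle libraries 1, 3, 4 and 5, then 8.69, 10.54, 9.99 and 6.17 across PAHSA libraries 1, 2, 3 and 4. It overlapped between the groups like the trypsinogens and kept the highest level of all enzyme genes in PAHSA replicate 4. It differed by -1.97 (SE 0.82), and -1.08 (SE 0.53) without PAHSA replicate 4. The other elastases Cela2a and Cela3b differed by -2.26 (SE 1.01; -1.11 without PAHSA replicate 4) and -2.43 (SE 1.12; -1.10 without PAHSA replicate 4). Ctrb1, a chymotrypsinogen, differed by -2.15 (SE 0.97; -1.04 without PAHSA replicate 4), Ctrc, a chymotrypsin that also degrades trypsinogen, by -1.81 (SE 0.78; -0.98 without PAHSA replicate 4), and the chymotrypsin-like Ctrl by -1.97 (SE 0.87; -1.03 without PAHSA replicate 4). Among the 30 secreted members tested, Ctrc had the difference nearest to 0 with all 8 libraries. The carboxypeptidase genes Cpa1 and Cpb1, whose enzymes trim peptides from the C-terminal end, differed by -2.22 (SE 0.93; -1.17 without PAHSA replicate 4) and -2.40 (SE 1.04; -1.18 without PAHSA replicate 4).

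Klk1, tissue kallikrein, which releases kinins, was singled out once its values were seen: it had the largest difference of the tested members and also the widest interval. It was at 6.72, 6.40, 8.07 and 7.72 log2 CPM across vehicle libraries 1, 3, 4 and 5, then 4.80, 7.13, 6.24 and -6.32 across PAHSA libraries 1, 2, 3 and 4. PAHSA replicate 4 was at its lowest value, whereas the other PAHSA libraries lay between 4.80 and 7.13. The difference was -4.26 (SE 2.37), and -1.17 (SE 0.53) without PAHSA replicate 4, with a 95% confidence interval from -9.50 to 0.97 over all 8 libraries.

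Amylases, which split starch, had all 3 listed genes tested. All 3 were lower in PAHSA, each at an unadjusted p under 0.05 (1 without PAHSA replicate 4). Amy2a5 (ENSMUSG00000074268, chromosome 3 from 113247178 to 113258837), a pancreatic amylase, was at 10.56, 10.43, 12.59 and 11.89 log2 CPM across vehicle libraries 1, 3, 4 and 5, then 8.97, 11.12, 10.22 and 4.95 across PAHSA libraries 1, 2, 3 and 4. Amy2b (ENSMUSG00000083079, chromosome 3 from 113147656 to 113156727) was at 10.47, 10.45, 12.46 and 11.73 log2 CPM across vehicle libraries 1, 3, 4 and 5, then 8.95, 10.97, 10.15 and 5.62 across PAHSA libraries 1, 2, 3 and 4. The 2 genes lay close together in every library, with Amy2b above Amy2a5 in vehicle replicate 3 and PAHSA replicate 4. Amy1 (ENSMUSG00000074264, chromosome 3 from 113555710 to 113606699), known as the amylase of the salivary gland and liver, was at 6.56, 6.60, 8.65 and 7.90 log2 CPM across vehicle libraries 1, 3, 4 and 5, then 5.17, 7.17, 6.31 and 1.47 across PAHSA libraries 1, 2, 3 and 4. It lay more than 3 log2 units below the pancreatic copies in every library, with vehicle replicate 4 highest and PAHSA replicate 4 lowest like them. The differences were -2.55 (SE 1.10; -1.27 without PAHSA replicate 4) for Amy2a5, -2.36 (SE 0.96; -1.26 without PAHSA replicate 4) for Amy2b and -2.40 (SE 1.02; -1.21 without PAHSA replicate 4) for Amy1.

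The table held 5 further amylase genes that were not in the list, and 3 of these, Amy2a2, Amy2a3 and Amy2a4, had identical values in all 8 libraries. Each differed by -2.20 (-1.19 without PAHSA replicate 4). Together the 8 amylase genes took 0.619%, 0.605%, 2.45% and 1.48% of the nominal CPM total across vehicle libraries 1, 3, 4 and 5. Across PAHSA libraries 1, 2, 3 and 4 they took 0.216%, 0.880%, 0.497% and 0.0218%. The order of the libraries was that of the 3 listed amylases summed. The 5 additional genes were picked out once their values were known.

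The lipase class comprised 5 lipid-splitting enzymes and colipase. All 6 were tested and lower in PAHSA, 3 of them at an unadjusted p under 0.05 (Pnlip, Cel and Pnliprp1; without PAHSA replicate 4 these were Cel, Pnliprp1 and Pnliprp2), with a median difference of -2.41 (-1.20 without that library). Pnlip (ENSMUSG00000046008, chromosome 19 from 58652498 to 58681788), the pancreatic triglyceride lipase, was at 9.89, 10.21, 12.31 and 11.60 log2 CPM across vehicle libraries 1, 3, 4 and 5, then 8.86, 10.57, 9.97 and 5.0 across PAHSA libraries 1, 2, 3 and 4. Cel (ENSMUSG00000026818, chromosome 2 from 28555795 to 28563403), the bile salt-activated lipase, was at 9.79, 9.98, 11.83 and 11.19 log2 CPM across vehicle libraries 1, 3, 4 and 5, then 8.30, 10.21, 9.72 and 4.87 across PAHSA libraries 1, 2, 3 and 4. Pnliprp1 (ENSMUSG00000042179), a lipase-related protein, was at 8.87, 8.72, 10.42 and 9.93 log2 CPM across vehicle libraries 1, 3, 4 and 5, then 7.12, 9.31, 8.41 and 3.62 across PAHSA libraries 1, 2, 3 and 4. For each of these 3 genes vehicle replicates 4 and 5 were the highest libraries and PAHSA replicate 2 came next. The differences were -2.40 (SE 1.03; -1.20 without PAHSA replicate 4) for Pnlip, -2.42 (SE 0.98; -1.29 without PAHSA replicate 4) for Cel and -2.37 (SE 0.99; -1.20 without PAHSA replicate 4) for Pnliprp1. Clps, colipase, which anchors the lipase to fat droplets in the presence of bile salts, differed by -2.23 (SE 1.05; -1.08 without PAHSA replicate 4). It had the widest range within the vehicle group of the lipase class, from 7.58 to 10.61. Pnliprp2 differed by -3.23 (SE 1.60; -1.19 without PAHSA replicate 4) and the phospholipase Pla2g1b by -3.37 (SE 1.65; -1.30 without PAHSA replicate 4), both with PAHSA replicate 4 below 0 log2 CPM.

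Among the other secreted and granule proteins, all 7 were tested and lower in PAHSA, 3 at an unadjusted p under 0.05 (Dmbt1, Gp2 and Rnase1; without PAHSA replicate 4 these were Dmbt1, Gp2 and Cuzd1). Dmbt1 (ENSMUSG00000047517, chromosome 7 from 131032053 to 131121630), a mucin-like scavenger protein, and Gp2 (ENSMUSG00000030954, chromosome 7 from 119442537 to 119459285), the main membrane glycoprotein of zymogen granules, had the smallest p of all tested members, both with an adjusted p of 0.671 by limma. Dmbt1 was at 7.08, 6.87, 8.65 and 8.31 log2 CPM across vehicle libraries 1, 3, 4 and 5, then 4.57, 7.51, 6.65 and 2.73 across PAHSA libraries 1, 2, 3 and 4. Gp2 was at 7.96, 7.88, 9.23 and 9.08 log2 CPM across vehicle libraries 1, 3, 4 and 5, then 5.76, 8.33, 7.36 and 2.83 across PAHSA libraries 1, 2, 3 and 4. In both, PAHSA replicate 2 lay above vehicle replicates 1 and 3, and PAHSA replicates 1 and 4 lay lowest. The differences were -2.36 (SE 0.88; -1.48 without PAHSA replicate 4) and -2.47 (SE 0.94; -1.39 without PAHSA replicate 4).

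Sycn (ENSMUSG00000084174), syncollin, a protein of the granule membrane, was at 7.53, 7.41, 9.70 and 8.87 log2 CPM across vehicle libraries 1, 3, 4 and 5, then 6.60, 8.27, 7.74 and 2.22 across PAHSA libraries 1, 2, 3 and 4. PAHSA replicates 2 and 3 both lay above vehicle replicates 1 and 3, and the difference was -2.17 (SE 1.11), and -0.84 (SE 0.55) without PAHSA replicate 4, the nearest to 0 among the secreted members once that library was left out. The lectin gene Zg16 differed by -1.89 (SE 0.87; -1.01 without PAHSA replicate 4), the ribonuclease gene Rnase1 by -1.92 (SE 0.81; -1.06 without PAHSA replicate 4), the trypsin inhibitor gene Spink1 by -2.48 (SE 1.20; -1.09 without PAHSA replicate 4) and Cuzd1, a granule protein gene, by -4.15 (SE 2.00; -1.63 without PAHSA replicate 4). Spink1 guards against trypsin activated inside the gland, and its difference over all 8 libraries lay within the range of those of the trypsinogens. Without PAHSA replicate 4 it was smaller in size than each of theirs, of which Prss2 had the smallest at -1.15. Cuzd1 was at the lowest value of its library in PAHSA replicate 4.

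The 2 regulators in the table did not share 1 profile, and which cells their RNA came from was not tested. Bhlha15 (ENSMUSG00000052271, chromosome 5 from 144190286 to 144194441) was at 6.49, 6.28, 6.42 and 6.44 log2 CPM across vehicle libraries 1, 3, 4 and 5, then 5.51, 6.11, 6.75 and 6.40 across PAHSA libraries 1, 2, 3 and 4. The 4 vehicle libraries lay close together, PAHSA replicate 3 was the highest of all libraries and PAHSA replicate 1 the lowest. In PAHSA replicate 4, where the secreted members had a median 5.91 below their vehicle means, it stood at 6.40, inside the vehicle range. The difference was -0.21 (95% confidence interval from -0.70 to 0.28), or -0.28 without PAHSA replicate 4, and it turned to 0.0145 without PAHSA replicate 1. Ptf1a (ENSMUSG00000026735, chromosome 2 from 19445663 to 19447501) was weakly expressed, at -1.01, -0.02, -0.16 and 0.40 log2 CPM across vehicle libraries 1, 3, 4 and 5, then -6.19, -0.27, -3.99 and -6.32 across PAHSA libraries 1, 2, 3 and 4. PAHSA replicates 1 and 4 were at the lowest value of their libraries and PAHSA replicate 3 was close to it, while PAHSA replicate 2 lay inside the vehicle range. Ptf1a was below the filter. Fitted with all 13725 genes it differed by -3.99 (SE 1.38), with an unadjusted p of 0.016 and an adjusted p of 0.630 by limma. That adjusted p is the lowest of that fit but is shared with other genes, so it does not rank Ptf1a first. Without PAHSA replicate 4 the difference of the group means was -3.29. The size of both values depends on the counts added before taking logs.

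Although the total varied 116-fold over the libraries, the make-up of the secreted acinar RNA by class varied little. Of the summed CPM of the 31 secreted members in the table, proteases took between 53.4% and 58.0% in the 7 libraries other than PAHSA replicate 4 and 60.8% in that library. Amylases took between 18.2% and 21.1%, and 16.5% in PAHSA replicate 4. Lipases and colipase took between 17.2% and 21.4%, and 16.5% in PAHSA replicate 4. The other secreted proteins took between 4.69% and 5.20%, and 6.13% in PAHSA replicate 4. That library lay outside the range of the others in each of the 4 classes, by less than 3 percentage points.

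**Figure D4:**
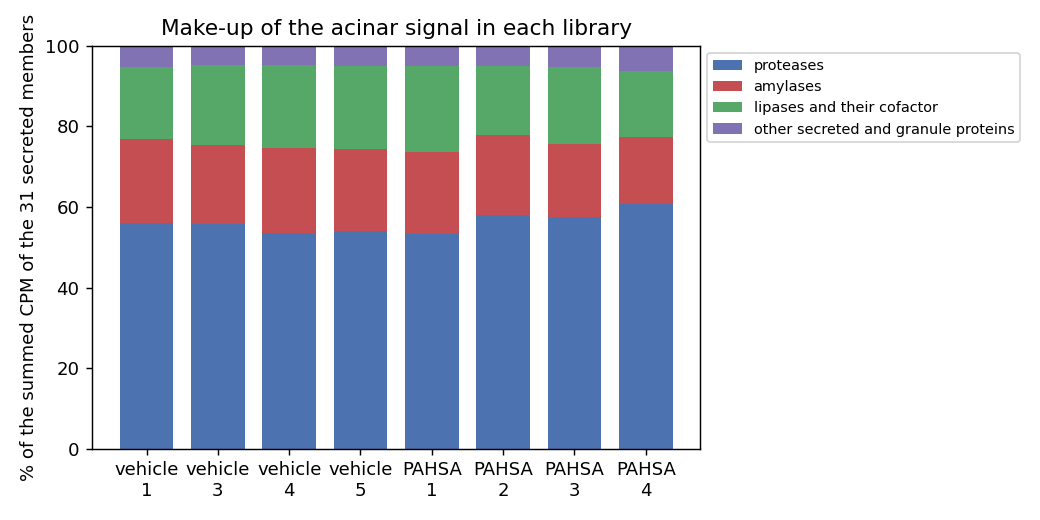
Share of each class in the summed CPM of the 31 secreted members, in percent, for each library (stacked bars). The 7 libraries other than PAHSA 4 have nearly equal bars, with proteases from 53.4% to 58.0%, and PAHSA 4 has 60.8%.

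Single genes departed from the common make-up in PAHSA replicate 4. Cela1 took 14.3% of the secreted acinar RNA there, against 6.76% to 8.10% in the other libraries, and Ctrc 3.74%, against 1.35% to 1.99%. Prss2 took 5.75%, against 7.05% to 10.2%, and Amy2a5 6.17%, against 9.02% to 10.7%. Klk1 took 0.463% to 0.726% in the other libraries and was at a count of 0 in PAHSA replicate 4. Among the other libraries some shares varied too, from 3.24% to 6.74% for Try5 and from 1.32% to 2.70% for Clps. Relative to its vehicle mean, the median secreted member was lower by 2.31 log2 units in PAHSA replicate 1, by 0.26 in replicate 2, by 0.98 in replicate 3 and by 5.91 in replicate 4. The same measure within the vehicle group was -0.82, -0.83, 1.17 and 0.49 in replicates 1, 3, 4 and 5. The 30 tested secreted members lay close together: without PAHSA replicate 4 their differences ranged from -1.76 (Prss3) to -0.84 (Sycn).

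Per length of the principal transcript, trypsinogens headed the vehicle group. Try4 and Prss2 had 11.45 and 11.40 log2 CPM per kilobase in vehicle, Ctrb1 11.05 and Try5 10.81, while Cela2a and Cela1 had 10.69 and 10.67, and Pnlip 10.43. The neighbours in this order differed by less than the SD between vehicle libraries, which was 0.82 to 1.16 for these 7 genes. At the bottom stood Ptf1a at -0.79 and Prss1 at 0.44, followed by Cuzd1 at 4.21, Bhlha15 at 4.60 and Try10 at 4.80. Amy2b had no coding transcript in the annotation and is not in this order.

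Levels of near-identical copies are uncertain, because a read that fits several genes is divided between them by kallisto's model. In GENCODE M21 transcripts, 82.7% of the distinct 31-base words of Try4 also occurred in transcripts of another gene, and so did 75.4% of those of Prss3, 69.3% of Prss1, 62.3% of Amy2a5, 60.9% of Try5, 60.4% of Amy2b and 58.6% of Try10. Amy1 shared 37.3%, mostly with the neighbouring gene Rnpc3, and Ptf1a 37.6%, all with its antisense partner Ptf1aos, from which it cannot be told apart over that stretch without strand. The annotated loci of Cela2a and Ctrc overlap on chromosome 4, and 16.6% and 19.8% of their words were shared, nearly all between them. Klk1 shared 40.5%, most with the kallikrein gene Klk1b5, and Cela3b 26.1%, nearly all with Cela3a. By contrast 15 tested members shared none, among them Ctrb1, Cpa1, Pnlip, Cel, Clps, Gp2 and Dmbt1. The median difference of these 15 was -2.36 (-1.17 without PAHSA replicate 4), and that of the 12 members that shared over 10% was -2.43 (-1.24).

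**Figure D5:**
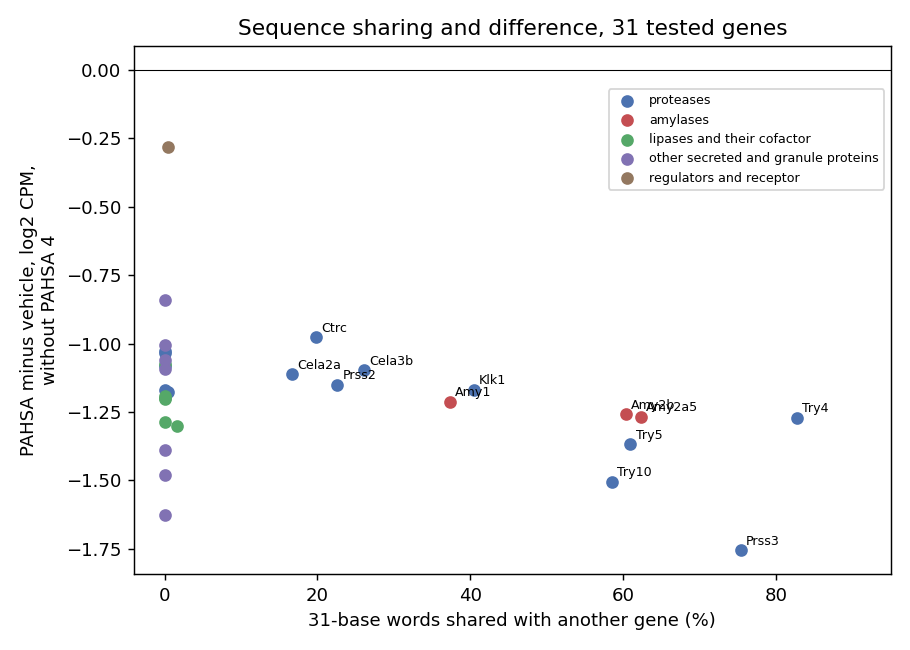
Percentage of the 31-base words of each tested member that also occur in another gene (horizontal axis) against its PAHSA minus vehicle difference in log2 CPM without PAHSA replicate 4 (vertical axis); each point is 1 of 31 genes, coloured by class. Genes without shared words cover the range from -1.63 to -0.84, and the gene nearest 0 is Bhlha15.

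Genes of the acinar cell outside the enzyme list had a median difference nearer to 0, and some of them had large differences of their own. Of 18 further acinar genes, 11 were tested, with 9 lower and 2 higher in PAHSA and 3 lower at an unadjusted p below 0.05 (1 without PAHSA replicate 4), with a median difference of -0.48 (-0.18 without that library). The stress-response gene Nupr1 differed by -1.26 (SE 0.52; -0.81 without PAHSA replicate 4) and the pancreas-specific disulfide isomerase gene Pdia2 by -2.19 (SE 0.94; -1.11), each with an adjusted p of 0.671 by limma. For Pdia2 PAHSA replicate 4 was at 0.84 log2 CPM, against 4.28 to 7.30 in the other libraries. By contrast Rab3d and Vamp8, secretory granule genes also used by other cells, differed by -0.16 (SE 0.14) and 0.01 (SE 0.19), and Xbp1, a factor of the secretory stress response that endocrine cells use too, by -0.14 (SE 0.09). Of 4 further trypsinogen-like genes, all 4 were lower, and 2 had an unadjusted p below 0.05.

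Markers of some other cell types also differed in mean between the groups. No gene passed an adjusted p of 0.05 by limma (0 of all genes tested). At an unadjusted limma p under 0.05, 4.29% of all genes were lower in PAHSA and 3.02% higher (4.96% and 2.95% without PAHSA replicate 4). Of 11 tested duct genes, 9 were lower in PAHSA and 2 higher, 5 lower at an unadjusted p under 0.05 (3 without PAHSA replicate 4), with a median difference of -0.24 (-0.23 without PAHSA replicate 4). Their summed CPM lay between 0.659% and 0.849% of the nominal CPM total in vehicle and between 0.419% and 0.650% in PAHSA, without overlap. Spp1 and Clu made up most of that sum in every library, and the other duct genes lay at or below 749.6 CPM. Taken singly, Spp1 and Muc1 were without overlap, and Clu and the other duct genes overlapped between the groups. The lack of overlap in the sum therefore does not describe the duct list as a whole. No duct gene in the table was at the lowest value of a library. The duct keratin gene Krt19 had 1.95, 5.13, 4.37 and 0.74 log2 CPM over PAHSA libraries 1, 2, 3 and 4, where vehicle ranged from 4.40 to 5.40. PAHSA replicates 1 and 4 were thus its lowest libraries, as for the enzymes. Stellate cell, fibroblast and pericyte genes were lower in 8 of 9 tested, 1 at an unadjusted p under 0.05, with a median difference of -0.94 (4 and -1.16 without PAHSA replicate 4), and with a summed CPM of 0.00822% to 0.0314% in vehicle and 0.00383% to 0.0143% in PAHSA, and PAHSA replicate 4 was the highest PAHSA library in that sum. Of 10 beta cell genes, 8 were higher and 2 lower, 3 higher at an unadjusted p under 0.05 (2 without PAHSA replicate 4), with a median difference of 0.28 and a summed CPM of 13.7% to 18.0% in vehicle and 14.1% to 17.6% in PAHSA. Ins1 differed by 0.08 (SE 0.14) and Ins2 by 0.18 (SE 0.13). The 3 genes, named after their values were known, were Ucn3 at 0.77, Slc2a2 at 0.64 and Mafa at 0.40, each with an adjusted p of 0.671 by limma. Of 7 tested alpha, delta and PP cell genes, 4 were lower in PAHSA and 3 higher. By limma, 0 of the 7 had an unadjusted p under 0.05, with and without PAHSA replicate 4. Their median difference was -0.07 (-0.03 without that library). The part of these other cells in the difference of the acinar genes was not tested.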

How the data were processed

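The authors deposited log2 CPM values for each gene in 8 columns, and each column was matched to a library by the sample description. Kallisto and limma are named in the submitters' processing notes; versions, genome build and annotation: not given in the sources used here. Per the labels' protocols, libraries were made with the NexteraXT kit, which does not mark strand. The lowest value of each column was taken as 0.5 added counts, which gave back estimated counts per gene and the depth; 47.4% to 50.5% of them lay within 0.01 of a whole number, so no count test was run. Symbols came from GENCODE M21 (13669 of 13725 identifiers matched), as did coordinates (GRCm38), principal transcripts and 31-base words. Genes with a mean log2 CPM above 0 were tested with limma 3.58.1 in R 4.3.3 (lmFit, eBayes with trend, group as the only term, two-sided, Benjamini-Hochberg over all genes tested, threshold 0.05). The script was tested on simulated data. Differences are PAHSA minus vehicle in log2 CPM, and for weak genes their size depends on the counts added before taking logs. Members and lists were chosen with earlier results of these data known. Values per library are given for the 3 best expressed members of each class, the regulators and the 3 members lowest in p, and differences for the further acinar genes lowest in p, of which 1 is not reported here; Klk1, Rab3d, Vamp8 and Xbp1 were added after their values were seen. Lists of endothelial, immune and red blood cell markers had 3 or fewer genes tested and are not described.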

Additional observations from a re-analysis of the deposited data

How the results depend on the processing

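Under 18 alternatives, 0 members and 0 of all genes passed an adjusted p of 0.05 in limma; the smallest adjusted p of a member ranged from 0.487 (without PAHSA replicate 2) to 0.885 (without vehicle replicate 3). Leaving out each library in turn gave a median difference of the members between -3.10 and -1.18 and 30 to 31 members lower in PAHSA. It was -0.81 without the libraries numbered 4 of both groups and -2.01 with limma array weights. The mean log2 difference of the members' summed CPM was -2.25 and ranged from -2.92 to -1.18 when each library was left out, and was -0.79 without both libraries numbered 4. With the replicate block over the libraries numbered 1, 3 and 4, the median was -2.95. By limma 24 members had an unadjusted p under 0.05 there and 0 were called. Deviations from the group means had correlations of -0.02, -0.02 and -0.02 for same-numbered libraries. Other pairs ranged from -0.05 to 0.05, so this measure cannot tell whether same-numbered libraries were paired. The count at an unadjusted p under 0.05 was 14 of 33 without a filter, 27 of 31 above a mean of 2 log2 CPM, 29 on log2(CPM + 1), 17 under quantile normalization, 8 with array weights, 30 without PAHSA replicate 2, 1 without both libraries numbered 4 and 0 in eBayes without trend; these causes were not tested. Bhlha15, at -0.21, ranged from -0.396 to 0.0145 when each library was left out, reversed without PAHSA replicate 1. In PAHSA replicate 4, whose 38872047 recovered counts lie within the range of the other libraries, 5 measured members were at a count of 0, and fold sizes of those genes cannot be measured there.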

Other observations

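PAHSA replicate 4 was examined over all genes for others that were low in it alone. Of 4098 genes that lay above 5 log2 CPM in each of the other 7 libraries, 28 (0.683%) lay at least 2 log2 units lower in PAHSA replicate 4 than in any other library. Of these 28 genes, 22 were acinar members, of 23 members above that level, and the remaining 6 were the amylase copies Amy2a1, Amy2a2, Amy2a3 and Amy2a4, the trypsinogen-like 2210010C04Rik and Reg1, a secreted lectin of the acinar cell. The member above that level without such a gap was Bhlha15. This level and this gap were chosen after the values were seen, and the genes are named as a description.

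Without a floor on the level, 116 genes tested lay at least 3 log2 units lower in PAHSA replicate 4 than in any other library. Of these, 22 were members and 94 were outside the list. The 10 genes outside the list with the largest gap were Egflam, Dnajc28, Gprin3, Frmd6, Fibin, Scara3, Pcdhac2, Smc2, Plod2 and Gna14. Each was listed at the lowest value of PAHSA replicate 4, -6.32 log2 CPM, and lay between 1.21 and 4.04 log2 CPM in the other libraries.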
